A study of Mus musculus with 6 samples.

Results

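The 38 genes described here encode enzymes and carriers of the tricarboxylic acid (TCA) cycle, of the steps that feed pyruvate and glutamine into it, and of the pentose phosphate pathway. They were chosen by gene symbol, as enzymes of these pathways, from a count table of 31017 gene symbols, of which 12158 genes held enough reads to be tested, and all 38 genes were among these. The table comes from 4T1, a mouse mammary carcinoma cell line, grown in droplets of collagen I gel in low attachment plates with serum. The 3 FGFR2 KO libraries (replicates 1 to 3) came from cells nucleofected with Cas9 and guides for the fibroblast growth factor receptor FGFR2, and the 3 control libraries (replicates 1 to 3) from cells given Cas9 with control guides. All 6 libraries shared the nucleofection, the gels, made with either 1.2 or 2.4 mg per ml collagen, medium with added glutamine, and release from the gel by collagenase at 37 °C before freezing. The collagen concentration of each library, the length of the cultures, the guides' target exon and whether the KO cells were a pool or a clone were not given in the sources used here.

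In the TCA cycle, acetyl-CoA made from pyruvate by the pyruvate dehydrogenase complex in mitochondria is joined to oxaloacetate and oxidized to carbon dioxide, which yields NADH for respiration. Glutamine and glutamate enter the cycle as 2-oxoglutarate, and in cultured tumour cells they are a main source of its carbon. The oxidative branch of the pentose phosphate pathway takes glucose 6-phosphate to ribulose 5-phosphate and yields NADPH, whereas the non-oxidative branch interconverts sugar phosphates and links ribose for nucleotides to glycolysis.

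Library totals ran from 18635037 to 20171309 counts in the FGFR2 KO libraries and from 15531790 to 20447719 counts in the control libraries, and the 38 genes took 0.449% to 0.459% of the counts in FGFR2 KO and 0.453% to 0.456% in control libraries. The targeted gene, Fgfr2 (chromosome 7, 130162451 to 133123350), had 101, 81.2 and 95.2 CPM (read counts normalised to the TMM-scaled library size) in FGFR2 KO replicates 1 to 3, against 96.9, 95.9 and 106 CPM in control replicates 1 to 3. Its total did not pass the test (log2 fold change -0.11, SE 0.056, edgeR quasi-likelihood adjusted p = 0.113), while it stood at -0.17 without FGFR2 KO replicate 1 (edgeR adjusted p = 0.0081) and at -0.017 without FGFR2 KO replicate 2 (0.809). A gene total does not test a small edit, so the groups are called by their labels. The annotated exons of Fgfr2 share 314 bases with Ctbp2 on the same strand, so reads there may be split or dropped. Of 7 epithelial markers 6 had counts, summed at 4209 to 4339 CPM in FGFR2 KO and 4083 to 4188 CPM in control libraries, with Krt5 at 0. The sum joins opposite changes: Krt14 rose to 978, 948 and 946 CPM in FGFR2 KO libraries, against 61.5, 59.7 and 59.5 CPM in control libraries, and Cdh1 rose by 0.25 on the log2 scale, while Krt18, Epcam, Cldn4 and Krt8 fell by 0.61, 0.42, 0.37 and 0.16 (edgeR adjusted p of at most 6.34e-05 each). Of 8 leukocyte markers 4 had counts, summed at 5.99 to 8.64 CPM in FGFR2 KO and 13.9 to 15.9 CPM in control libraries, with Cd3e, Adgre1 and Ly6g among those at 0. Most of that sum was Cd68, at 5.08, 5.82 and 7.01 CPM in FGFR2 KO and 13.2, 12.6 and 15.4 CPM in control libraries, whereas Csf1r lay between 0.452 and 1.48 CPM in both groups without passing the test, and Ptprc and Itgam had 0 to 3 counts. Of 6 fibroblast markers 4 had counts, summed at 39.6 to 45.3 CPM in FGFR2 KO and 36.2 to 38.2 CPM in control libraries, with Lum and Thy1 at 0. Most of that sum was Pdgfra, which did not pass the test (means of 39.4 CPM in FGFR2 KO and 36.4 CPM in control libraries). The others had few counts, higher in FGFR2 KO. Col1a1 had 33, 18 and 21 counts in FGFR2 KO and 10, 9 and 5 in control libraries. Dcn had 11, 10 and 12 against 2, 0 and 0, and Pdgfrb 8, 6 and 12 against 0, 0 and 2. Of 4 endothelial markers 2 had counts, summed at 0.153 to 0.588 CPM in FGFR2 KO and 0.0492 to 0.258 CPM in control libraries, with Kdr and Tek at 0. Transcripts of the mitochondrial genome took 1.38% to 1.43% of counts in the FGFR2 KO libraries and 0.952% to 1.02% in the control libraries. The part of these marker and mitochondrial differences in the results below was not tested. In bulk RNA, fewer cells of a type and less RNA per cell cannot be told apart.

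The FGFR2 KO libraries differed from the control libraries in 25 of the 38 genes, 13 higher and 12 lower, at an adjusted p below 0.05 in edgeR's quasi-likelihood test over all tested genes. That is 65.8% of the members, against a background of 54.6% of all tested genes called, and the higher calls (34.2% of members) and lower calls (31.6%) stood beside 27.1% and 27.5% of all tested genes. Me3 passed the filter on low counts through the FGFR2 KO libraries alone, so its place among the called members carries no weight. Among the 34 members with a mean of at least 20 CPM, 23 (67.6%) were called, against 61.2% of tested genes at that level, a limit set after the values were seen. For 27 members (71.1%) the 3 FGFR2 KO values did not overlap the 3 control values, against 59.5% of tested genes. The members' shares were thus somewhat above those of all genes, a description to which no test was applied. The members were chosen with earlier results of these data known, so this excess carries no weight.

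Most changes were small. Of the 25 called members, 13 moved by under 0.25 on the log2 scale, 7 by 0.25 to 0.5 and 5 by at least 0.5. The median log2 fold change was 0.04 over the members and -0.0061 over all tested genes, and the median absolute log2 fold change was 0.16 over the members and 0.21 over all tested genes. Tested against a minimum fold change of 1.5, 3 members were called (Rpia, Idh1 and Me3), which is 7.89% against 7.46% of all tested genes. These 3 include Me3, whose call carries no weight, so the likeness of the shares carries none either. The largest called changes were falls in Rpia, Idh1, Glul and Pck2 and rises in Mpc2 and in Me3, the latter tested only through its FGFR2 KO libraries.

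**Figure D1:**
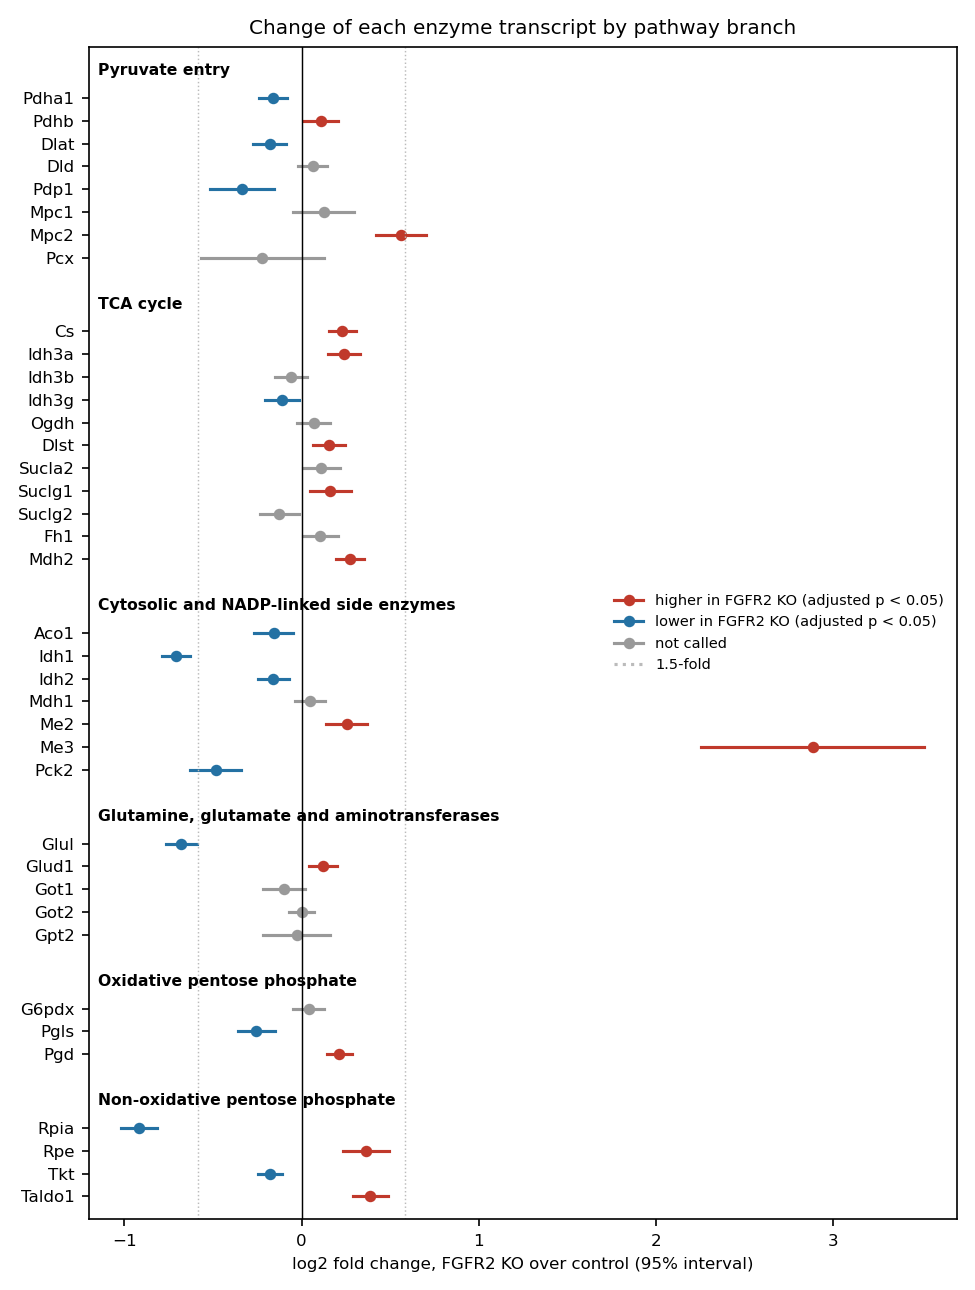
Log2 fold change of FGFR2 KO over control for the 38 genes, grouped by pathway branch, with 95% intervals; red and blue mark genes called higher and lower in FGFR2 KO, grey those not called, and dotted lines 1.5-fold. Rpia (-0.92), Idh1 (-0.71) and Glul (-0.68) stand farthest to the left and Me3 (2.89) and Mpc2 (0.56) farthest to the right, while the TCA cycle genes lie between -0.13 and 0.27.

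The promoter windows of these 6 genes are shown because they are the called members with the largest absolute log2 fold changes. Each is the sequence from 250 bases before to 50 bases after an annotated start site, taken from RefSeq (GRCm38.p6) and written 5′ to 3′ on the gene's strand. Idh1 has 2 annotated windows and the one upstream is printed. Capitals mark a match, on either strand, to any of 3 short motifs. These were TGACNNNGC (the core of the antioxidant response element bound by NRF2), ACGTG (the core of the hypoxia response element bound by HIF, which overlaps the E-box CACGTG) and TGATGNAA (the amino acid response element bound by ATF4).

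Rpia (chr6:70792126-70792425, minus strand): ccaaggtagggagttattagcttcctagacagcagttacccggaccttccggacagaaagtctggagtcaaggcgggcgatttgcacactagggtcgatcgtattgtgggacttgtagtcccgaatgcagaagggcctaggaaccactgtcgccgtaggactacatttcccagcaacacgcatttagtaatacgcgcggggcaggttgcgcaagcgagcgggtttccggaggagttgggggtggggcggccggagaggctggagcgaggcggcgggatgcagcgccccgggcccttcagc
Idh1 (chr1:65186430-65186729, minus strand): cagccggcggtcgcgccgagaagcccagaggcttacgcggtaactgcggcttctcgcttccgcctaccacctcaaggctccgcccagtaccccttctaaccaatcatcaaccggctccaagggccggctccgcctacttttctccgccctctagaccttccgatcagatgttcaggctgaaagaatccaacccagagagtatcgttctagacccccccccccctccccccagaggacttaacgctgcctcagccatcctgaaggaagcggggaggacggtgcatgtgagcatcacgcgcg
Glul (chr1:153899679-153899978, plus strand): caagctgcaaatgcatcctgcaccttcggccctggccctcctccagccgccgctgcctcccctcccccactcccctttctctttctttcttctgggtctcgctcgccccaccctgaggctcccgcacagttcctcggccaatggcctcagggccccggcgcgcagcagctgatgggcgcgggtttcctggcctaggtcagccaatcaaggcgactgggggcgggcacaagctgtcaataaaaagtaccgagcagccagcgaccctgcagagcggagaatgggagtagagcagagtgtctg
Pck2 (chr14:55540016-55540315, plus strand): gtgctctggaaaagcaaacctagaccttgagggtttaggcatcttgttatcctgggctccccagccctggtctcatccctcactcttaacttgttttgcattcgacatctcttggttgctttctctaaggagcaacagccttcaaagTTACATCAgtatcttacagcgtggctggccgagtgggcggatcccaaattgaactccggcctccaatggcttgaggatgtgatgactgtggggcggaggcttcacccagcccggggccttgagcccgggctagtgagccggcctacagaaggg
Mpc2 (chr1:165461010-165461309, plus strand): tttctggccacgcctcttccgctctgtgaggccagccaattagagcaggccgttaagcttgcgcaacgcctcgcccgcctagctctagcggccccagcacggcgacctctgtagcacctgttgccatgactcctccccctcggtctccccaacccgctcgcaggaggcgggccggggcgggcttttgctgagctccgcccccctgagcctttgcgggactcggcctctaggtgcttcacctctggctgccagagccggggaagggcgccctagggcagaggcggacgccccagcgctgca
Me3 (chr7:89632568-89632867, plus strand): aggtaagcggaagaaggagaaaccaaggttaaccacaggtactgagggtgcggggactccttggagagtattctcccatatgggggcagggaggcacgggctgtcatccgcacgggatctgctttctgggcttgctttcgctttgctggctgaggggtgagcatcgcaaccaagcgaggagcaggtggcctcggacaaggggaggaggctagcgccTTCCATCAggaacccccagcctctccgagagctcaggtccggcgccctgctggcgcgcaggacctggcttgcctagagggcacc

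The ATF4 motif occurred in 3.97% of all 32851 promoter windows and in 3 of the 35 members with a window (Me3, Pck2 and Got1), and in the windows shown it lay on the opposite strand at -34 from the start site of Me3 and at -103 from that of Pck2. Me3 was called higher and Pck2 lower, and Got1 missed the threshold. Me3 had to be high in FGFR2 KO libraries to be tested, so its direction carries no weight. Whether the motif bears on any change was not tested. The NRF2 motif was present in 12.4% of all windows and in 8 of 35 members (Pdhb, Mpc1, Idh3g, Dlst, Sucla2, Mdh1, G6pdx and Pgd), among them 3 of 11 called higher and 1 of 11 called lower. The HIF motif was present in 19.6% of all windows and in 6 of 35 members (Pdhb, Pcx, Idh3g, Ogdh, Mdh1 and G6pdx), 1 of 11 called higher and 1 of 11 called lower. The called members with the HIF motif were Pdhb (higher) and Idh3g (lower), which also had the NRF2 motif. Both calls were lost in several of the alternative fits given below, and the 11 called higher include Me3. A match is a run of letters and not a measured binding site, and the absence of a match concerns only these letters in these windows. The shares of all windows count single windows, whereas a member counts if any of its windows matches, so these measures are unlike. No window was found for Pdp1, Idh3a and Me2.

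Levels can be compared between genes only per length, here as RPKM (CPM per kilobase of the union of annotated exons). Per length, Mdh2, Got2 and Pgd had the highest levels in the FGFR2 KO libraries, at 76.1, 74.8 and 65.4 RPKM, and Idh1, Got2 and Pdha1 the highest in the control libraries, at 76.4, 74.8 and 65.5 RPKM. Idh1 thus left the first place of the list, at 46.8 ± 0.806 RPKM in FGFR2 KO and 76.4 ± 0.377 RPKM in control libraries (SD, n = 3 each). The lowest levels were those of Me3, at 0.293 RPKM in FGFR2 KO and 0.0388 RPKM in control libraries, and of Pcx, at 1.05 and 1.22 RPKM in FGFR2 KO and control libraries. The union of exons counts rarely used exons in full, so genes with long annotated models, such as Me3 (14624 bases), Pck2 (7806 bases) and Mpc2 (7344 bases), are set low on this scale.

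**Figure D2:**
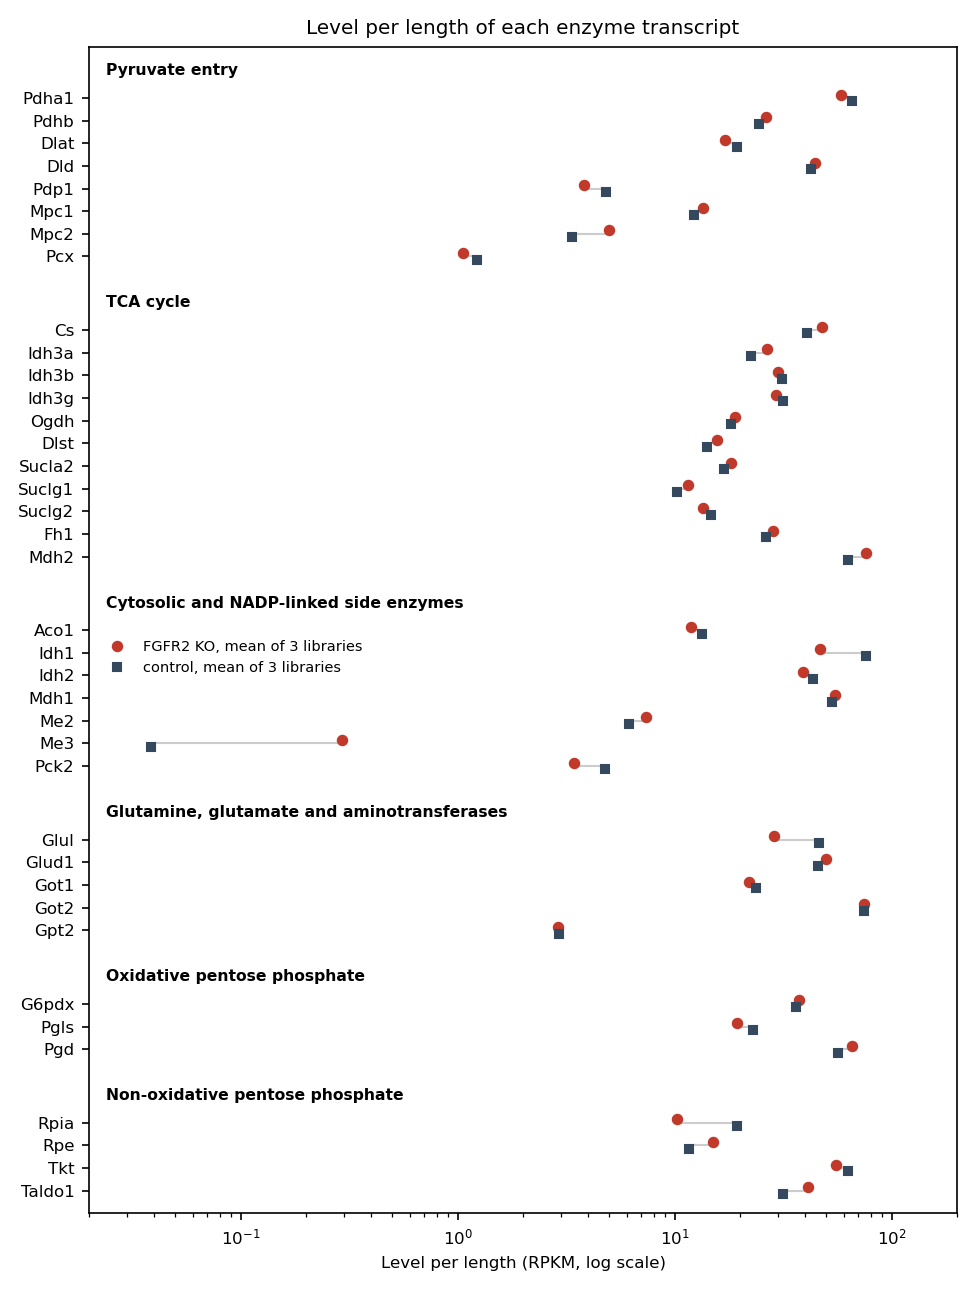
Level per length of the 38 genes in RPKM on a log scale, with the mean of the 3 FGFR2 KO libraries (red circles) above and the mean of the 3 control libraries (dark squares) below for each gene. Most genes lie between 10 and 80 RPKM, and both marks stand widest apart for Me3, Rpia, Idh1 and Glul.

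Of the 8 genes of pyruvate entry, 2 rose, 3 fell and 3 missed the threshold, beside 54.6% of all tested genes called. Pyruvate reaches the mitochondrial matrix through the mitochondrial pyruvate carrier, a heterodimer of Mpc1 and Mpc2. Mpc2 had 35.7, 37 and 36.6 CPM in FGFR2 KO replicates 1 to 3, against 24.9, 25.8 and 23.3 CPM in control replicates 1 to 3. Every FGFR2 KO library lay above every control library, and the level was 147% of the control (95% interval 134% to 163%; log2 fold change 0.56, edgeR adjusted p = 1.6e-08, SE 0.070). Its partner Mpc1 had 26.4, 29.9 and 27.7 CPM in FGFR2 KO and 27.3, 28 and 21.4 CPM in control libraries, so the groups overlapped, and it did not pass the test (0.12, SE 0.084, edgeR adjusted p = 0.212). The interval for Mpc1 ran from -0.046 to 0.29 on the log2 scale, and the difference between both partners was not tested.

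The pyruvate dehydrogenase complex is built of E1 (Pdha1 and Pdhb), E2 (Dlat) and E3 (Dld) subunits. Pdha1, the E1 alpha subunit whose phosphorylation switches the complex off, fell to 218, 226 and 211 CPM in FGFR2 KO libraries, against 239, 244 and 251 CPM in control libraries (log2 fold change -0.16, edgeR adjusted p = 4.76e-04, SE 0.038). Dlat fell as well, with 80.6, 86 and 84.3 CPM in FGFR2 KO and 93.5, 94.6 and 96.4 CPM in control libraries (-0.18, SE 0.046, edgeR adjusted p = 0.00109). For both genes the groups did not overlap, and the FGFR2 KO levels were 89.4% and 88.2% of the control. Pdhb, the E1 beta subunit, was called higher (0.11, SE 0.047, edgeR adjusted p = 0.0439) although its libraries overlapped, at 96.9, 106 and 104 CPM in FGFR2 KO and 91.6, 98.5 and 93.9 CPM in control libraries. The Pdhb call was lost with DESeq2 (adjusted p = 0.0677), with upper quartile scaling (edgeR adjusted p = 0.109), with a filter of 5 CPM (0.0599), and without FGFR2 KO replicate 2 (0.17) or 3 (0.106) or control replicate 1 (0.185) or 3 (0.101). Dld, which also serves the 2-oxoglutarate dehydrogenase complex, had 161, 166 and 162 CPM in FGFR2 KO and 149, 159 and 158 CPM in control libraries, without overlap, but missed the threshold (0.063, SE 0.041, edgeR adjusted p = 0.187).

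Phosphatases switch the complex on and kinases switch it off. Pdp1, a catalytic phosphatase subunit, fell to 16.4, 17 and 18.2 CPM in FGFR2 KO libraries, against 21.5, 23.5 and 19.9 CPM in control libraries, without overlap (log2 fold change -0.34, edgeR adjusted p = 0.00157, SE 0.089). Pdk1, a kinase that is not among the 38 genes, fell as well, to 34.4, 34.7 and 37.2 CPM in FGFR2 KO libraries, against 123, 114 and 118 CPM in control libraries. Within each library the count ratio of Pdp1 to Pdk1 was 0.477, 0.489 and 0.488 in FGFR2 KO replicates 1 to 3, against 0.175, 0.206 and 0.170 in control replicates 1 to 3. The ratio was thus higher in each FGFR2 KO library than in any control library, although both genes fell (difference of log2 ratios 1.40, two-sided exact permutation p = 0.1, the smallest that 3 against 3 libraries can give). Pcx, pyruvate carboxylase, which makes oxaloacetate from pyruvate, had 4.33, 4.9 and 5.78 CPM in FGFR2 KO and 4.69, 7.09 and 5.68 CPM in control libraries and did not pass the test (-0.22, 95% interval -0.57 to 0.13, edgeR adjusted p = 0.28).

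Of the 11 TCA cycle genes, 5 rose, 1 fell and 5 missed the threshold. The 6 called of 11 are close to the 54.6% called among all tested genes. The median log2 fold change of the 11 was 0.11, beside -0.0061 for all tested genes. The sum of the 11 genes' CPM was 1402 ± 24.2 in FGFR2 KO and 1271 ± 12.6 in control libraries (SD, n = 3 each). This sum joins opposite changes, with Idh3b, Idh3g and Suclg2 below 0. Cs had means of 276 and 236 CPM and Mdh2 of 271 and 224 CPM in FGFR2 KO and control libraries. The subunits of succinate dehydrogenase are not members, so the sum leaves them out. Mdh2, the malate dehydrogenase that closes the cycle, moved most, with 276, 284 and 254 CPM in FGFR2 KO and 227, 224 and 222 CPM in control libraries (log2 fold change 0.27, edgeR adjusted p = 2.74e-07, SE 0.040). Cs, citrate synthase, which opens the cycle, rose to 281, 278 and 270.3 CPM in FGFR2 KO libraries, against 229, 235 and 243 CPM in control libraries (0.23, SE 0.037, edgeR adjusted p = 2.00e-06). For both enzymes all FGFR2 KO libraries stood above all control libraries.

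NAD-dependent isocitrate dehydrogenase holds the subunits Idh3a, Idh3b and Idh3g, and their values lay on both sides of 0. Idh3a, the catalytic subunit, rose to 139, 136 and 129 CPM in FGFR2 KO libraries, against 109, 117 and 116 CPM in control libraries (log2 fold change 0.24, edgeR adjusted p = 1.62e-05, SE 0.044). Idh3g, a regulatory subunit, had 77.9, 80.5 and 79.6 CPM in FGFR2 KO and 83.5, 85 and 88.4 CPM in control libraries, a small fall just past the threshold (-0.11, SE 0.047, edgeR adjusted p = 0.0484). It was not called with DESeq2 (adjusted p = 0.0911), limma-voom (0.0508), RLE scaling (0.0561), no filter (0.104), the replicate number as a block (0.0581) and after leaving out any single library (edgeR adjusted p = 0.0524 to 0.174). Idh3b, the other regulatory subunit, had 101, 106 and 100.3 CPM in FGFR2 KO and 111, 103 and 106 CPM in control libraries and did not pass the test (-0.058, edgeR adjusted p = 0.28). The count ratio of Idh3a to Idh3g, a pair chosen after the values were seen, was 1.78, 1.69 and 1.62 in FGFR2 KO replicates 1 to 3 and 1.31, 1.37 and 1.31 in control replicates 1 to 3 (exact permutation p = 0.1, the smallest possible).

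The next step, from 2-oxoglutarate to succinyl-CoA, is carried out by Ogdh (E1), Dlst (E2) and Dld (E3). Dlst rose to 154, 142 and 156 CPM in FGFR2 KO libraries, against 128, 139 and 137 CPM in control libraries (log2 fold change 0.16, edgeR adjusted p = 0.0031, SE 0.044), without overlap. Ogdh had 103, 102 and 106 CPM in FGFR2 KO and 96.3, 103 and 96.7 CPM in control libraries and did not pass the test (0.068, SE 0.045, edgeR adjusted p = 0.202). Succinyl-CoA ligase pairs the shared subunit Suclg1 with either Sucla2, which makes the enzyme ATP-forming, or Suclg2, which makes it GTP-forming. Suclg1 had 53.4, 52.4 and 52.9 CPM in FGFR2 KO and 48.8, 44.9 and 48.2 CPM in control libraries and was called higher (0.16, SE 0.057, edgeR adjusted p = 0.015), a call lost without control replicate 2 (edgeR adjusted p = 0.108). Sucla2 had 72.5, 72.3 and 72.7 CPM in FGFR2 KO and 70.6, 67.4 and 63 CPM in control libraries (0.11, edgeR adjusted p = 0.0648), and Suclg2 had 61.3, 63.1 and 62.1 CPM in FGFR2 KO and 62.8, 72.6 and 67.9 CPM in control libraries (-0.13, edgeR adjusted p = 0.0505). The values for these partners lay on opposite sides of 0, and both just missed the threshold.

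The values for both ligase partners moved with single libraries. Without control replicate 1, both Sucla2 and Suclg2 were called (edgeR adjusted p = 0.0316 for Sucla2 and 0.0134 for Suclg2), and Suclg2 was also called with upper quartile scaling (0.0213) and a filter of 5 CPM (0.0343). Without control replicate 2 Suclg2 stood at -0.069 (edgeR adjusted p = 0.359), and without control replicate 3 Sucla2 stood at 0.072 (0.288). The count ratio of Suclg2 to Sucla2 was 0.845, 0.873 and 0.855 in FGFR2 KO libraries, against 0.889, 1.08 and 1.08 in control libraries, so control replicate 1 lay close to the FGFR2 KO libraries (exact permutation p = 0.1). Fh1, fumarase, had 92.2, 104 and 92.1 CPM in FGFR2 KO and 89.9, 89.7 and 88.6 CPM in control libraries and did not pass the test (0.10, SE 0.049, edgeR adjusted p = 0.0672). It was called without FGFR2 KO replicate 1 (edgeR adjusted p = 0.0262) or 3 (0.0311), whereas without FGFR2 KO replicate 2, its one high library, it stood at 0.045 (0.483).

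A group of 7 side enzymes held those in the cytosol or linked to NADP, and also Pck2 and the mainly NAD-linked Me2, both mitochondrial. Of these 7, 4 fell, 2 rose (Me3 among them) and 1 missed the threshold. Their median log2 fold change was -0.16, and 54.6% of all tested genes were called. Their summed level was 509 ± 6.26 CPM in FGFR2 KO and 603 ± 7.99 CPM in control libraries (SD, n = 3 each). The sum joins opposite changes, and Idh1 alone had means of 130 and 212 CPM in FGFR2 KO and control libraries. Idh1 (chromosome 1, 65158616 to 65186500) encodes the cytosolic isocitrate dehydrogenase, which makes NADPH and 2-oxoglutarate and can also run in reverse to make isocitrate for lipid synthesis. It had 127, 131 and 131 CPM in FGFR2 KO replicates 1 to 3, against 211, 213 and 211 CPM in control replicates 1 to 3. The groups lay far apart and each was tight, and the FGFR2 KO level was 61.2% of the control (95% interval 57.9% to 64.7%; log2 fold change -0.71, edgeR adjusted p = 5.41e-18, SE 0.039).

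Idh2, the mitochondrial NADP-dependent enzyme, fell to 100.4, 101 and 102 CPM in FGFR2 KO libraries, against 110.5, 114 and 114 CPM in control libraries (-0.16, SE 0.043, edgeR adjusted p = 0.00208). The count ratio of Idh1 to Idh2 was 1.26, 1.30 and 1.29 in FGFR2 KO replicates 1 to 3, against 1.91, 1.86 and 1.86 in control replicates 1 to 3. That of Idh1 to Idh3a was 0.914, 0.960 and 1.02 in FGFR2 KO libraries, against 1.93, 1.83 and 1.82 in control libraries. In neither ratio did the groups overlap (differences of log2 ratios -0.55 and -0.95, exact permutation p = 0.1 each, the smallest possible).

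Aco1, cytosolic aconitase, which also acts as an iron-responsive RNA-binding protein, had 54.7, 55.4 and 51 CPM in FGFR2 KO and 58.1, 60.7 and 60.7 CPM in control libraries (log2 fold change -0.16, edgeR adjusted p = 0.0146, SE 0.055). This call was lost without FGFR2 KO replicate 3 (edgeR adjusted p = 0.1) or control replicate 2 (0.0583). Mdh1, the cytosolic malate dehydrogenase of the malate-aspartate shuttle, had 143, 143 and 135 CPM in FGFR2 KO and 135, 139 and 133 CPM in control libraries and did not pass the test (0.049, 95% interval -0.036 to 0.13, edgeR adjusted p = 0.334). The count ratio of Mdh1 to its mitochondrial counterpart Mdh2 was 0.517, 0.505 and 0.533 in FGFR2 KO libraries, against 0.597, 0.620 and 0.599 in control libraries (difference of log2 ratios -0.22, exact permutation p = 0.1).

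Pck2 (chromosome 14, 55540266 to 55551242), the mitochondrial phosphoenolpyruvate carboxykinase, which draws oxaloacetate out of the cycle, fell to 26.9, 25.2 and 28 CPM in FGFR2 KO libraries, against 37.2, 39.6 and 34.9 CPM in control libraries. The groups did not overlap, and the FGFR2 KO level was 71.5% of the control (95% interval 64.7% to 79.0%; log2 fold change -0.48, edgeR adjusted p = 3.78e-07, SE 0.071). The mitochondrial malic enzymes turn malate into pyruvate and differ in cofactor, Me2 using mainly NAD and Me3 NADP. Me2 rose to 53.4, 55.1 and 52 CPM in FGFR2 KO libraries, against 45.3, 45.3 and 43.7 CPM in control libraries (0.25, SE 0.057, edgeR adjusted p = 2.53e-04).

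Me3 (chromosome 7, 89632392 to 89854359) had few reads in either group, with 98, 87 and 64 counts in FGFR2 KO replicates 1 to 3, against 16, 9 and 6 counts in control replicates 1 to 3. It met the minimum for testing through the FGFR2 KO libraries alone, since control replicates 2 and 3 were below it, so the test bears on a gene that had to be high there. The counts correspond to 5.24, 4.44 and 3.16 CPM in FGFR2 KO and 0.872, 0.443 and 0.387 CPM in control libraries, a fitted 7.39-fold rise (log2 fold change 2.89, SE 0.31, 95% interval 2.26 to 3.51, edgeR adjusted p = 4.87e-10). The groups did not overlap, and per length Me3 stayed below Me2, which was at 7.37 RPKM in FGFR2 KO and 6.18 RPKM in control libraries. Me3 overlaps exons of A230065N10Rik on the opposite strand over 569 bases, and the strand setting of the counting was not given in the sources used here. Likewise, Pdha1 shares 603 bases of exon with Map3k15 and G6pdx 418 bases with Ikbkg on the opposite strand.

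**Figure D3:**
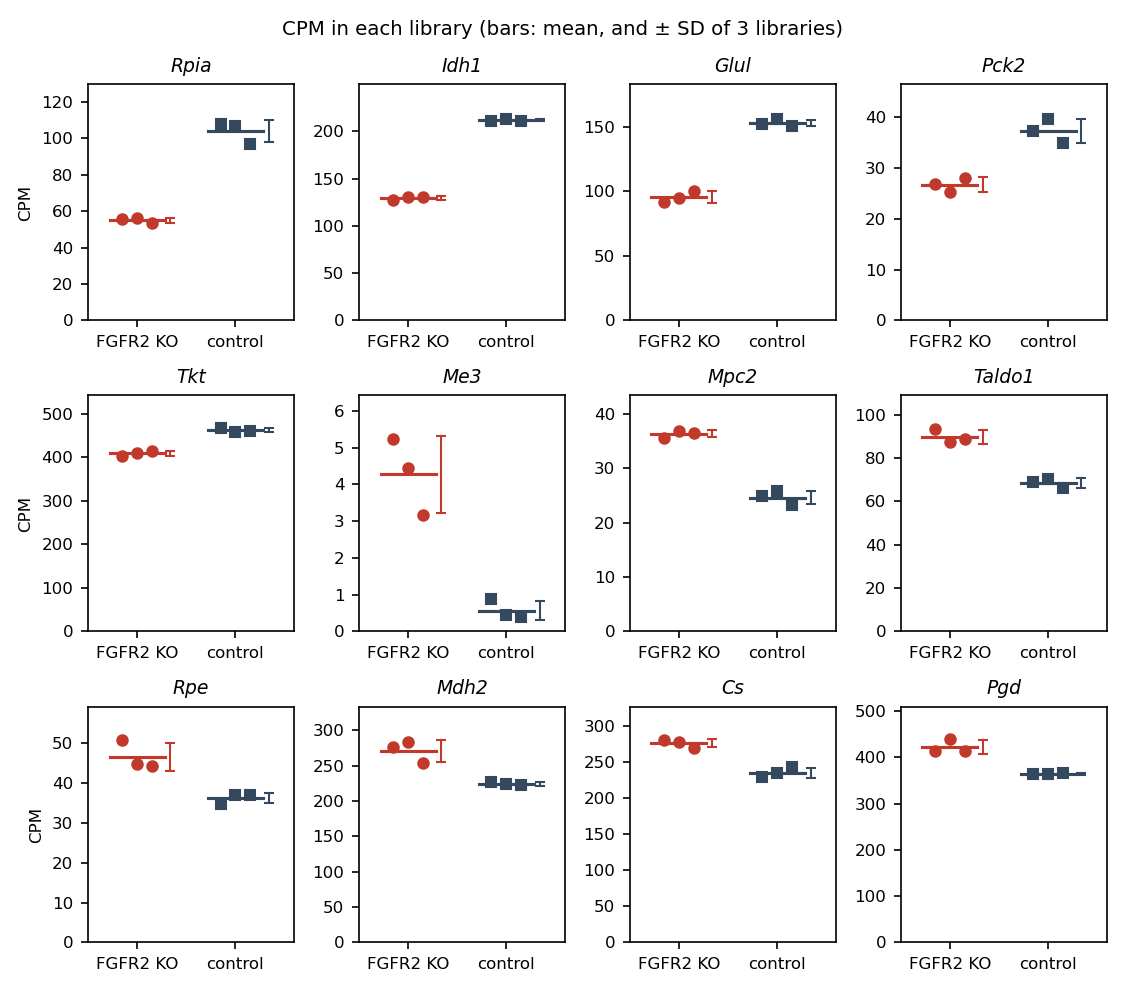
CPM of 12 members in each library (FGFR2 KO as red circles at the left, control as dark squares at the right; horizontal lines are means and brackets ± SD, n = 3 each; each axis starts at 0). The 2 groups are separate in all 12 panels, most widely for Rpia, Idh1, Glul and Me3.

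Of the 5 genes of glutamine, glutamate and transamination, 1 fell, 1 rose and 3 missed the threshold (median log2 fold change -0.026). Among all tested genes 54.6% were called. Glul (chromosome 1, 153899944 to 153909723) encodes glutamine synthetase, which makes glutamine from glutamate and ammonia and whose protein is degraded when glutamine is plentiful. It had 91.5, 95 and 100.3 CPM in FGFR2 KO replicates 1 to 3, against 153, 156 and 151 CPM in control replicates 1 to 3. No FGFR2 KO library came near a control library, and the FGFR2 KO level was 62.5% of the control (95% interval 58.7% to 66.4%; log2 fold change -0.68, edgeR adjusted p = 5.47e-16, SE 0.044). Against a minimum fold change of 1.5, edgeR's adjusted p was 0.062.

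Glud1, glutamate dehydrogenase, which feeds glutamate into the cycle as 2-oxoglutarate, had 203, 208 and 219 CPM in FGFR2 KO and 188, 192 and 200.3 CPM in control libraries (log2 fold change 0.12, edgeR adjusted p = 0.00953, SE 0.040). This small rise was not called without FGFR2 KO replicate 3 (edgeR adjusted p = 0.0675) or control replicate 1 (0.0707). The count ratio of Glul to Glud1 was 0.45, 0.456 and 0.457 in FGFR2 KO replicates 1 to 3, against 0.812, 0.811 and 0.752 in control replicates 1 to 3 (difference of log2 ratios -0.80, exact permutation p = 0.1, the smallest possible). All 3 aminotransferases missed the threshold. Got2, the mitochondrial aspartate aminotransferase, had 353, 370.4 and 359 CPM in FGFR2 KO and 367, 359 and 356 CPM in control libraries, and its 95% interval ran from 95.3% to 105% of the control. Its cytosolic counterpart Got1 had 52.6, 56.7 and 58.8 CPM in FGFR2 KO and 61.8, 62.9 and 55.2 CPM in control libraries (log2 fold change -0.10, edgeR adjusted p = 0.141, SE 0.058) and was called without control replicate 3 (-0.15, edgeR adjusted p = 0.0391). It stood at -0.056 without FGFR2 KO replicate 1 (edgeR adjusted p = 0.463) and at -0.064 without control replicate 2 (0.453). Gpt2, the mitochondrial alanine aminotransferase, had 16.8, 16 and 16 CPM in FGFR2 KO and 15.4, 16.7 and 17.7 CPM in control libraries (-0.026, SE 0.093, edgeR adjusted p = 0.831).

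Of the 3 enzymes of the oxidative pentose phosphate branch, 1 rose, 1 fell and 1 missed the threshold, beside 54.6% of all tested genes called. Their summed level was 609.6 ± 16.2 CPM in FGFR2 KO and 563 ± 4.92 CPM in control libraries (SD, n = 3 each). The sum joins opposite changes, and Pgd alone had means of 422 and 364 CPM in FGFR2 KO and control libraries. G6pdx, glucose 6-phosphate dehydrogenase, which commits glucose to the pathway, had 115, 117 and 114 CPM in FGFR2 KO and 115, 111 and 109.8 CPM in control libraries and did not pass the test (log2 fold change 0.040, 95% interval -0.047 to 0.13, edgeR adjusted p = 0.446). Pgls, the lactonase of the second step, fell to 68.5, 71 and 78.5 CPM in FGFR2 KO libraries, against 89.8, 84.3 and 86.4 CPM in control libraries (-0.26, SE 0.051, edgeR adjusted p = 6.67e-05). Its exons share 776 bases with Fam129c on the same strand, so reads there may be split or dropped. Pgd, 6-phosphogluconate dehydrogenase, which makes ribulose 5-phosphate and NADPH, rose to 412, 439 and 414 CPM in FGFR2 KO libraries, against 363, 363 and 366 CPM in control libraries (0.21, SE 0.035, edgeR adjusted p = 2.99e-06). For Pgls and Pgd the groups did not overlap.

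All 4 genes of the non-oxidative branch changed, 2 up and 2 down, and none had overlapping groups, in a table where 54.6% of tested genes were called and 59.5% did not overlap. Their summed level was 600.4 ± 2.39 CPM in FGFR2 KO and 671 ± 9.59 CPM in control libraries (SD, n = 3 each). Opposite changes are joined in this sum, and Tkt alone had means of 409 and 463 CPM in FGFR2 KO and control libraries. Rpia (chromosome 6, 70765720 to 70792232), ribose 5-phosphate isomerase, which turns ribulose 5-phosphate into the ribose 5-phosphate used for nucleotides, had 55.5, 56.2 and 53.4 CPM in FGFR2 KO replicates 1 to 3. The control replicates 1 to 3 had 108, 107 and 97.1 CPM, so every FGFR2 KO library lay far below every control library. The FGFR2 KO level was 52.9% of the control (95% interval 49.2% to 56.8%; log2 fold change -0.92, edgeR adjusted p = 5.44e-18, SE 0.051), the largest fall among the 38 genes.

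Rpe, the epimerase that takes the same ribulose 5-phosphate to xylulose 5-phosphate, rose to 50.7, 44.8 and 44.2 CPM in FGFR2 KO libraries, against 34.7, 36.9 and 36.9 CPM in control libraries (log2 fold change 0.37, edgeR adjusted p = 9.28e-06, SE 0.064). Both enzymes share this substrate, and their count ratio, Rpia to Rpe, was 1.10, 1.26 and 1.21 in FGFR2 KO replicates 1 to 3, against 3.12, 2.89 and 2.64 in control replicates 1 to 3. This pair was chosen after the values were seen (difference of log2 ratios -1.28, exact permutation p = 0.1, the smallest possible). Rpe shares 558 bases of exon with Kansl1l on the opposite strand.

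Taldo1, transaldolase, rose to 93.3, 87.3 and 88.7 CPM in FGFR2 KO libraries, against 69.1, 70.3 and 66.2 CPM in control libraries (log2 fold change 0.39, edgeR adjusted p = 1.62e-08, SE 0.049). Tkt, transketolase, the most abundant of the branch per length, at 55.6 RPKM in FGFR2 KO and 62.9 RPKM in control libraries, fell to 403, 409 and 415 CPM in FGFR2 KO libraries, against 468, 459 and 461 CPM in control libraries (-0.18, SE 0.034, edgeR adjusted p = 2.67e-05). The count ratio of G6pdx to Tkt was 0.285, 0.286 and 0.274 in FGFR2 KO libraries and 0.246, 0.242 and 0.238 in control libraries (difference of log2 ratios 0.22, exact permutation p = 0.1).

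In all, 13 ratios were computed, 2 of them added after the values were seen. The genes of the other pairs also came from lists chosen with earlier results known. The groups did not overlap in 11 ratios, Me2 to Me3 among them, which rests on the low counts of Me3. Among single tested genes 59.5% did not overlap, and no such share was computed for pairs. Each of these 11 had an exact permutation p of 0.1 and a Benjamini-Hochberg adjusted p of 0.118 over the 13, so no ratio could pass a threshold of 0.05 with 3 libraries a group. The remaining ratios, Got1 to Got2 and Pcx to Pdha1, overlapped (exact permutation p = 0.2 and 0.8).

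**Figure D4:**
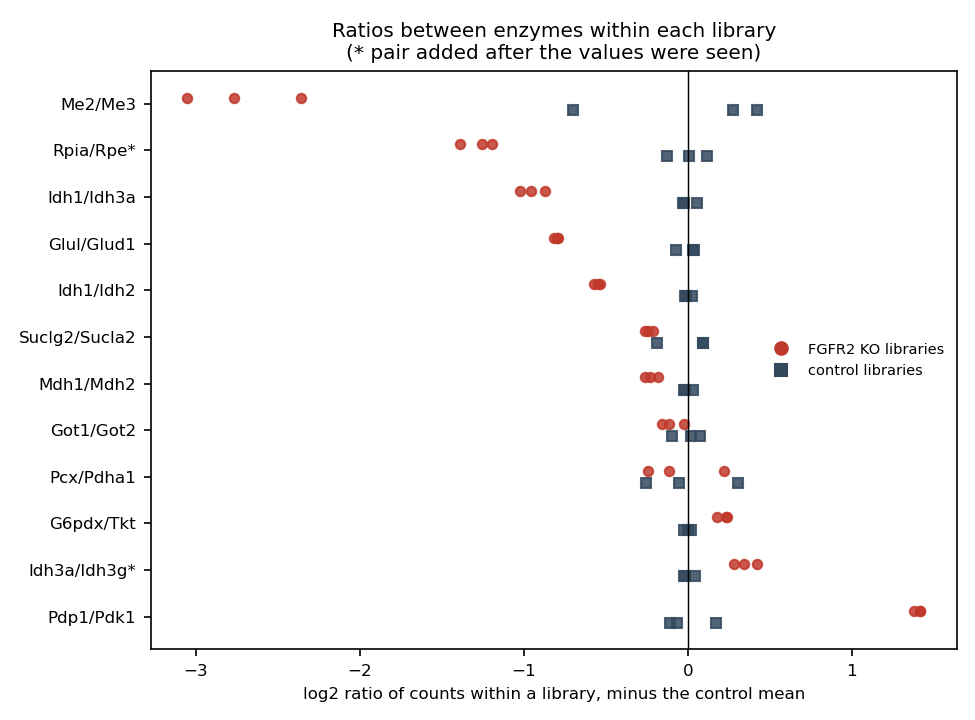
Log2 ratio of the counts of 2 enzymes within each library for 12 of the 13 ratios, minus the mean of the control libraries, with FGFR2 KO libraries as red circles above and control libraries as dark squares below in each row. The FGFR2 KO libraries lie left of the control libraries for Me2/Me3, Rpia/Rpe, Idh1/Idh3a, Glul/Glud1, Idh1/Idh2, Suclg2/Sucla2 and Mdh1/Mdh2. They lie right of the control libraries for Pdp1/Pdk1, Idh3a/Idh3g and G6pdx/Tkt, and overlap them for Got1/Got2 and Pcx/Pdha1.

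Neighbouring genes of the same pathways, not among the 38, were listed for comparison, with all their changes on the log2 scale. Of 14 tested genes of the TCA cycle and of pyruvate control, 2 rose, 5 fell and 7 were not called, again beside 54.6% of all tested genes called. The succinate dehydrogenase subunits Sdha, Sdhb and Sdhd did not pass (log2 fold changes -0.021, 0.037 and 0.096), and Sdhc, a membrane anchor of that enzyme, fell by 0.18 (edgeR adjusted p = 4.41e-04). Among the regulators of pyruvate dehydrogenase, Pdk1 fell by 1.73 (edgeR adjusted p = 3.35e-26) and the phosphatase subunit Pdp2 fell by 0.87 to 18.7, 16.2 and 20.2 CPM in FGFR2 KO libraries, against 32.4, 33.8 and 34.3 CPM in control libraries. Pdk2 and Pdk3 did not pass the test (0.19 and -0.12), and Pdk4 had 0 counts in all libraries. Pdhx, which tethers E3 to the complex, rose by 0.33, Me1, the cytosolic malic enzyme, rose by 0.21, and Acly, which splits citrate for lipid synthesis, fell by 0.23 (edgeR adjusted p = 0.00132, 6.97e-04 and 1.29e-06).

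Of 7 tested neighbours of the pentose phosphate pathway, 1 rose, 3 fell and 3 were not called, beside 54.6% of all tested genes called. Tigar, a phosphatase that can divert glucose into the pathway, rose by 0.40, and Dera, Rbks and H6pd, the glucose 6-phosphate dehydrogenase of the endoplasmic reticulum, fell by 0.39, 0.83 and 0.19 (edgeR adjusted p = 0.00164, 7.48e-05, 0.00538 and 0.0392). The H6pd call was lost with DESeq2 (adjusted p = 0.08), with no filter (edgeR adjusted p = 0.0596) and without FGFR2 KO replicate 1 (0.0546) or 2 (0.171) or control replicate 1 (0.0615) or 3 (0.177). That of Rbks was lost without FGFR2 KO replicate 3 (-0.57, edgeR adjusted p = 0.0542) or control replicate 2 (-0.65, 0.0713). Of 12 tested neighbours in glutamine and glutamate use, 6 rose, 1 fell and 5 were not called, again beside that 54.6%. Ctps and Cad, which use glutamine nitrogen for pyrimidines, rose by 0.58 and 0.20, Asns, asparagine synthetase, by 0.28, and Psat1, a serine pathway aminotransferase that uses glutamate, by 0.32, while Gfpt1, which opens hexosamine synthesis, fell by 0.51 (edgeR adjusted p of at most 1.44e-04 each).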

How the data were processed

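The deposited values are raw read counts per gene symbol for each of the 6 libraries. Per the submitters' processing notes, FastQC 0.11.9, STAR 2.7.9a, featureCounts and R 4.1.1 were used, and hg38 and mm10 are named without a role. The annotation release, the strand setting and the handling of multiply aligned reads were not given in the sources used here, so genes with overlapping neighbours or processed pseudogenes are uncertain to that extent. The libraries were poly(A), stranded TruSeq preparations, per the labels' protocols.

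Fold changes were fitted with edgeR 4.0.16 (R 4.3.3) across all genes passing filterByExpr (minimum count 10, total 15), with TMM scaling, the group as the only term, the quasi-likelihood F-test and Benjamini-Hochberg adjustment over 12158 genes (adjusted p below 0.05). SE is the fold change over the square root of F, and intervals are 95%. CPM used TMM-scaled library sizes, and RPKM divided CPM by the length of all annotated exons in kilobases. DESeq2 1.42.0, limma-voom (limma 3.58.1), other scalings and filters, a minimum fold change of 1.5, a replicate block and leaving out each library were alternatives. Positions, exon overlaps and lengths are from GENCODE M21 (mm10), which holds 98.2% of the table's symbols.

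All 38 members are named. From each list of neighbours, the up to 6 called genes with the smallest adjusted p are named, with Pdk1 to Pdk4, the Sdh subunits and H6pd in any case. Gls2 and Pycr1, neighbours in glutamine and glutamate use that were not called, are also named, for their changes of sign between fits. Some genes and 1 ratio that these rules cover are not reported here. The members and lists were chosen with earlier results of these data known. Replicate libraries differed beyond counting noise (chi-square per degree of freedom 2.29 to 4.87). The labels do not say that replicates were separate cultures, so p-values rest on the spread among these 6 libraries, which may be technical. No columns were left unassigned.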

Additional observations from a re-analysis of the deposited data

How the results depend on the processing

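The counts of members called higher and lower, 13 and 12, ran from 11 to 14 and from 10 to 13 over 13 of the 14 alternatives. Against a minimum fold change of 1.5 they were 1 (Me3) and 2, and the count over all tested genes was 907 in place of 6639. Of the 25 called members, 20 kept their call under all alternatives other than that minimum, except that a filter of 5 CPM left Me3 out and gave it no value. The other 5 (Pdhb, Idh3g, Suclg1, Aco1 and Glud1) lost it without at least 1 library. Upper quartile scaling moved the split of all called genes to 2969 higher and 3603 lower, against 3300 and 3339. With 0.5 added to the counts, the within-library ratios moved by less than 1 SD of the replicates.

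Log2 fold changes that had missed the threshold changed sign in some fits. That of Got2 (0.00078) was -0.022 with upper quartile scaling and -0.0080 with a filter of 5 CPM, and that of Gls2 (-0.0055) was 0.0019 with no filter and 0.0013 with the replicate block. With each library left out in turn, Got2 ran from -0.017 to 0.018, Gls2 from -0.076 to 0.072, Gpt2 from -0.076 to 0.018, Sdhb from -0.0068 to 0.076, Pdk2 from -0.036 to 0.31 and Pycr1 from -0.13 to 0.011. Without a change of sign, Mpc1 ran from 0.020 to 0.20, Pcx from -0.36 to -0.041, Dld from 0.035 to 0.082, Idh3b from -0.085 to -0.028, Ogdh from 0.050 to 0.10, Mdh1 from 0.035 to 0.076, G6pdx from 0.027 to 0.061, Sdha from -0.035 to -0.0091 and Sdhd from 0.050 to 0.14, the last called without FGFR2 KO replicate 3 (edgeR adjusted p = 0.0179). The cause was not tested.

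Same-numbered libraries of both groups showed no shared deviation from their group means (correlations -0.064 to -0.0032). Deviations from a mean of 3 libraries depend on each other, so these values cannot settle whether the numbers pair the samples. With the replicate number as a block, 13 members were called higher and 11 lower, and 6443 genes were called in all. Idh3g was the 1 member whose call this changed (-0.11, edgeR adjusted p = 0.0581). Depth limits Me3 (6 to 98 counts) and Pcx (81 to 144 counts). The background share at 20 CPM and the ratios of Rpia to Rpe and Idh3a to Idh3g were added after seeing the data.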
